A study of Mus musculus with 24 samples.

Results

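The protein p53 is a transcription factor that is held low by degradation in undisturbed cells and that, once stabilised by DNA damage or other stress, switches on genes that slow or stop the cell cycle. Some of its targets act back on p53 itself: MDM2 marks it for degradation, the phosphatase WIP1 (gene Ppm1d) removes the phosphates that stabilise it, cyclin G1 (Ccng1) activates MDM2 through the phosphatase PP2A, and GTSE1 moves p53 out of the nucleus. Mouse embryos pass through zygotic genome activation at the 2-cell stage, when maternal RNA is cleared and new transcripts appear.

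The 8 genes described here are targets of p53 in cell cycle arrest (Cdkn1a, Btg2, Plk2, Plk3) and in feedback on p53 (Mdm2, Ppm1d, Ccng1, Gtse1). They were chosen by name, with earlier results of these data known, and make up 8 of the 55291 genes counted in each library. Their counts beside those of all genes are therefore a description. All 8 passed the filter on low counts in every comparison. The study injected antisense oligonucleotides (ASOs, short synthetic strands that lead to the decay of an RNA they pair with) at 20 µM into the male pronucleus of zygotes from B6D2F1 mice. MERVL-KD embryos received a mixture of ASOs against MERVL, an endogenous retrovirus transcribed at the 2-cell stage, and control embryos a scrambled ASO, so both kinds of embryo were injected and cultured. Total RNA was sequenced from control and MERVL-KD embryos at the 2-cell stage (1.5 days post-coitum) and at the 4-cell and 8-cell stages, with 2 libraries of 30 pooled embryos in each of the 6 groups, 12 libraries in all. Per the labels 4-cell and 8-cell embryos were of equal age, 2.5 days post-coitum, and of strain BDF2. The cleavage stage of the embryos was checked by eye under the microscope before pooling. A pool of 30 embryos cannot show whether a level changed in every embryo or in some of them.

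Library totals ranged from 28167085 to 41482526 counts. MERVL-int, the internal part of MERVL, took from 1.07% to 6.57% of the counts in the control libraries and from 0.0278% to 0.157% in those of MERVL-KD embryos, with no library against its label. Summed CPM (the sequencing unit in which a count is scaled by its library's total) of 5 markers of the 2-cell stage was 202 to 252 in control 2-cell embryos and 2.79 to 6.53 in control 4-cell and 8-cell embryos, and it was 138 to 183 in MERVL-KD 2-cell embryos. The 6 markers of later blastomeres summed to 135 to 137 CPM in control 2-cell and to 412 to 413 CPM in control 8-cell embryos. Markers of cumulus and granulosa cells stayed at or below 3.91 CPM in sum in every library. Blood markers, with Hbb-bs listed at 0 in all MERVL-KD libraries, summed to between 3.22 and 8.43 CPM in the MERVL-KD libraries of the 2-cell and 4-cell stages against 0.548 to 1.61 CPM in control. Their part in the values below was not tested. Levels are given as CPM of the library's total. The tests scaled the libraries by TMM (trimmed mean of M-values), and with library totals in its place the median log2 difference between MERVL-KD and control over all genes tested moved from 0.01 to 0.30 at the 2-cell stage, from 0.03 to 0.09 at the 4-cell stage and from 0.01 to 0.13 at the 8-cell stage. A level in CPM therefore stands slightly higher in MERVL-KD embryos than the tested difference, most at the 2-cell stage. In a pool, fewer cells and less RNA per cell cannot be told apart.

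The DNA near the start of these genes was read first, because p53 acts by binding a response element made of a pair of 10-base half-sites. A run matching the consensus p53 response element at all but at most 2 of its 20 positions, with the core C and G of each half-site intact and the half-sites adjacent, was sought in GRCm38.p6 (the consensus reads alike on both strands). In the 300-base RefSeq promoter windows, from 250 bases before to 50 after a start site, such a run lay at Cdkn1a, Ccng1 and Gtse1, that is at 3 of 8 members, against 106 of 27025 genes (0.392%). Within 3000 bases on either side of a start site it lay at these genes and at Plk2, 4 of 8 members, against 1855 of 27025 genes (6.86%). Capitals mark the element, with 5 bases on each side in lower case, read 5′ to 3′ on the gene's own strand.
Cdkn1a element: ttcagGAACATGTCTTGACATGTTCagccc
Ccng1 element: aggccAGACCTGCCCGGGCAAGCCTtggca
Gtse1 element: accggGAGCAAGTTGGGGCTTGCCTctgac
Plk2 distal element: gtgaaCAACATGCCCGGGCTTGCATtgaga
Plk2 proximal element: atggcGATCTTGCTTAGACTTGTTGcgtac

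The Cdkn1a element lay at chr17:29090928-29090947 on the plus strand and began at position -51 relative to the upstream RefSeq start site at 29090979. Relative to another RefSeq start site of Cdkn1a, at 29093769, it began at position -2841. The Ccng1 element lay at chr11:40755462-40755481 on the minus strand, at position -195 relative to the start site and outside the counted gene model, and another run with 1 mismatch lay in an intron of Ccng1 at chr11:40754936-40754955. The Gtse1 element at chr15:85859945-85859964 on the plus strand straddled the border of an exon and an intron. The Plk2 elements, each with 2 mismatches, lay on the plus strand at positions -2162 and -650 relative to the start site, at chr13:110392882-110392901 and chr13:110394394-110394413. The other members held no such run within this distance, which says nothing about elements farther away or with more mismatches.

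Another motif, TGACGTCA, the full cAMP response element bound by CREB and ATF proteins, lay in the promoter windows of Btg2, Ppm1d and Plk2, 3 of 8 members, against 549 of 27025 genes (2.03%). It reads the same on both strands, and it was picked after these promoters had been seen. Capitals mark it in the excerpts, each read on the gene's own strand and each ending before the start site.
Btg2 promoter: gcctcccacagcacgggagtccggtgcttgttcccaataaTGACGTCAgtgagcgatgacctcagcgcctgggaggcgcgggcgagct
Ppm1d promoter: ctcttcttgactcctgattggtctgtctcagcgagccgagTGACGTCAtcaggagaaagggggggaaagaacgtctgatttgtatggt
Plk2 promoter: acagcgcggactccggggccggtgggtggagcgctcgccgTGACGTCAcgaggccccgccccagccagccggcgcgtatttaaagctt

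The Btg2 excerpt is chr1:134079274-134079361 on the minus strand, the Ppm1d excerpt chr11:85311129-85311216 on the plus strand and the Plk2 excerpt chr13:110394942-110395029 on the plus strand. No member held both motifs in its 300-base window. Plk2 had its p53 runs outside that window, within 3000 bases of the start site, where TGACGTCA was not sought. A match of letters is a description of the sequence, and no binding was measured here.

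In 2-cell embryos 5 of the 8 members were called higher in MERVL-KD embryos, against 900 of the 20604 genes tested (4.37%). A call required a difference of at least 2-fold and an adjusted p under 0.05 by edgeR. Repeat families were tested as well but are left out of these counts of genes. In 4-cell embryos 6 members were called higher, against 525 of 19738 genes (2.66%). In 8-cell embryos 3 members were called higher, against 118 of 18414 genes (0.641%). By this test 0 of the 8 were called lower at any stage, as by DESeq2. At an unadjusted edgeR p under 0.05, 3, 0 and 1 were lower at the 3 stages. That threshold was reached in either direction by 5556, 4948 and 3582 of the genes tested. An adjusted p under 0.05 with no fold threshold was reached by 6, 7 and 4 members at the 3 stages. Among them Ppm1d at the 2-cell stage was lower, and the others were higher. Over all genes tested 1381 higher and 1523 lower passed it in 2-cell, 972 and 1153 in 4-cell and 276 and 656 in 8-cell embryos. P-values here set a difference against the spread between pools of embryos, 2 per group, estimated with the help of all features tested. The members' median log2 difference was 1.44, 1.52 and 0.50 in the order of the stages, beside 0.01, 0.03 and 0.01 over all genes tested. Over all genes 462, 372 and 195 were called lower at the 3 stages, and scaled by library size the counts higher and lower were 1710 and 294, 578 and 307, and 197 and 155, with the same members called.

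Averaged over the 3 stages in one fit of the 12 libraries, 4 members were called higher, Btg2, Ccng1, Plk2 and Cdkn1a, against 540 of 24040 genes (2.25%). Their mean log2 differences were 2.40 for Btg2, 2.24 for Ccng1, 1.80 for Plk2 and 1.11 for Cdkn1a. Gtse1 (0.61) and Plk3 (0.43) passed the adjusted p but not the fold threshold, and Ppm1d (0.24) and Mdm2 (0.12) passed neither.

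**Figure D1:**
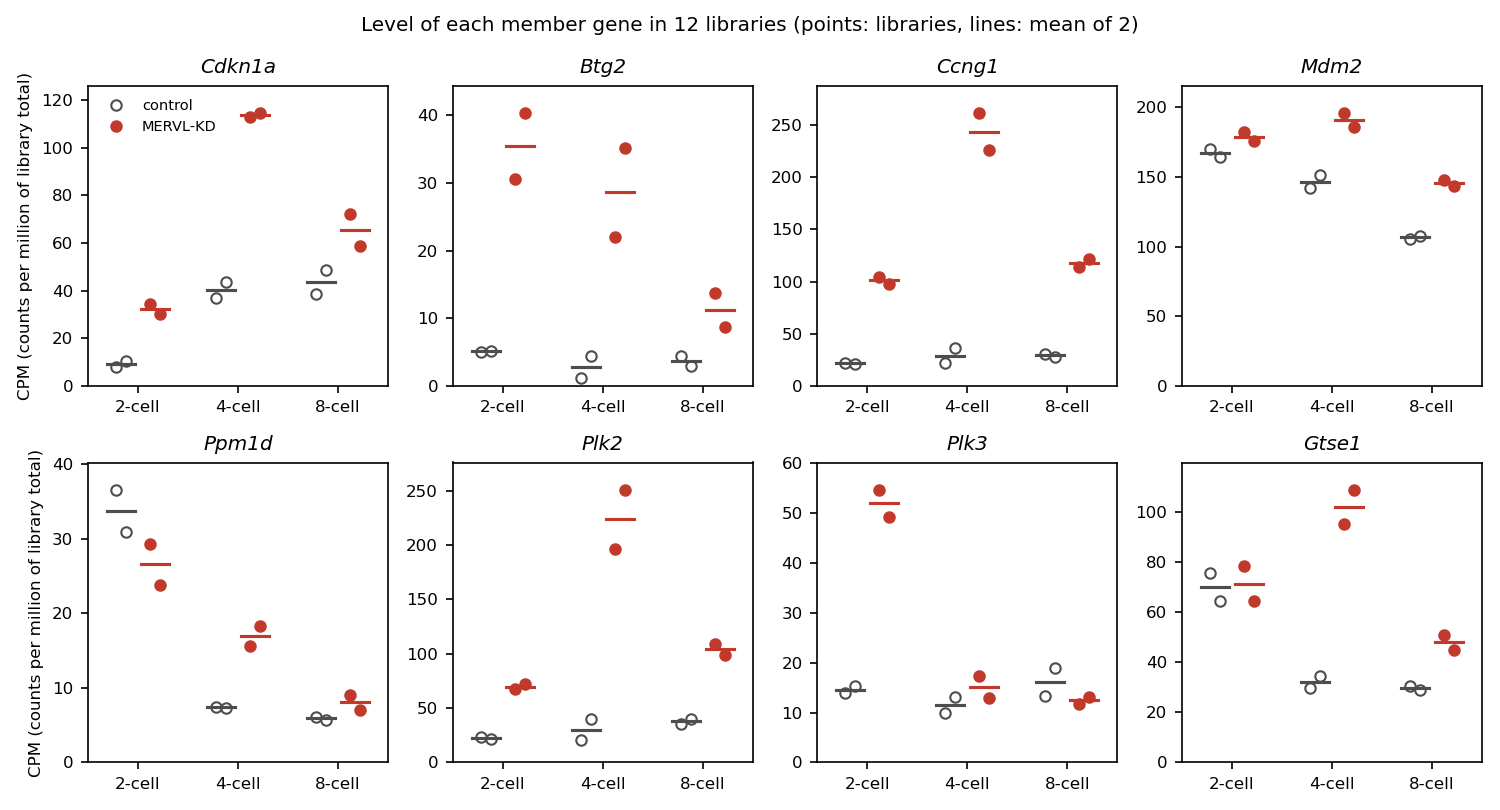
Level of each of the 8 genes in every library, in CPM of the library's total on a linear axis from 0, by stage; open grey circles are control libraries, filled red circles MERVL-KD libraries and lines the mean of 2. Btg2, Ccng1 and Plk2 lay above every control library at each stage, Plk3 rose at the 2-cell stage, and the MERVL-KD 4-cell libraries of Ppm1d lay between the control levels of the 2-cell and 4-cell stages.

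The levels in CPM were also compared library by library. In CPM both MERVL-KD libraries lay above both control libraries of their stage for 6 members in 2-cell embryos, where 51.5% of all genes tested did so, for 7 members in 4-cell embryos (32.0% of genes) and for 7 members in 8-cell embryos (33.4% of genes). The 2-cell share of genes is so large that the count there is no result about the members. Both MERVL-KD libraries lay above all 6 control libraries of any stage for 5 members in 2-cell embryos (28.9% of genes), 6 in 4-cell embryos (15.3%) and 4 in 8-cell embryos (10.5%). With TMM-scaled CPM the counts above the stage's own control were 5, 7 and 7 and the counts above all 6 control libraries 4, 5 and 4, since the small rise of Mdm2 dropped out. The share of all genes was not computed on the TMM scale. The shares above belong to CPM of the library's total and are no measure for these TMM counts.

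Cdkn1a encodes p21, the inhibitor of cyclin-dependent kinases through which p53 stops cells before S phase. The gene lies at chr17:29090976-29100727 (GRCm38, plus strand). It held 7.75 and 10.3 CPM in the control 2-cell libraries and 34.3 and 30.2 CPM in the MERVL-KD 2-cell libraries. At the 4-cell stage it held 36.8 and 43.8 CPM in control against 113 and 114 CPM in MERVL-KD. At the 8-cell stage the levels were 38.8 and 48.7 CPM in control and 72.0 and 58.6 CPM in MERVL-KD. The groups did not overlap at any stage, and the MERVL-KD 2-cell libraries stayed below the control 4-cell libraries.

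The log2 difference of Cdkn1a was 1.55 (standard error 0.17) at the 2-cell stage, with adjusted p = 2.2e-05 (edgeR, quasi-likelihood test, Benjamini-Hochberg adjustment over all features tested). It was 1.44 (standard error 0.12) at the 4-cell stage, with an edgeR adjusted p = 2.1e-05. At the 8-cell stage it was 0.45 (95% interval 0.17 to 0.74), with an edgeR adjusted p = 0.0725, and was not called. In control embryos Cdkn1a rose by 1.98 on the log2 scale from the 2-cell to the 4-cell stage (edgeR adjusted p = 8.8e-10) and showed 0.32 (95% interval 0.00454 to 0.64) from the 4-cell to the 8-cell stage. It thus rose between stages in the injected control embryos as well, and the MERVL-KD 4-cell level, 114 ± 1.06 CPM (SD, n = 2), was the highest of the 6 groups. Cdkn1a shares 273 exonic bases with 1700023B13Rik on the opposite strand, which held from 2 to 43 counts in a library where Cdkn1a held from 260 to 3785.

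Btg2 encodes an antiproliferative protein of the BTG/TOB family that brings the CCR4-NOT deadenylase to mRNAs. It lies at chr1:134075170-134079120 on the minus strand and had the lowest level per exon length of the 8 genes in every control library. Its control libraries held 5.01 and 5.23 CPM at the 2-cell stage, 1.24 and 4.4 CPM at the 4-cell stage and 4.37 and 2.94 CPM at the 8-cell stage. The MERVL-KD libraries held 30.6 and 40.3 CPM, 22.1 and 35.2 CPM, and 13.8 and 8.77 CPM at the same stages. All 6 MERVL-KD libraries lay above all 6 control libraries.

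The difference of Btg2 at the 2-cell stage was 2.50 on the log2 scale (standard error 0.18, edgeR adjusted p = 1.8e-07), a 5.66-fold higher level. It was 3.32 (standard error 0.57, edgeR adjusted p = 0.0201) at the 4-cell stage, where the 2 control libraries lay far apart. It was 1.49 (standard error 0.28, edgeR adjusted p = 0.0108) at the 8-cell stage. Without MERVL-KD 4-cell replicate 1 the 4-cell difference was 3.65 (edgeR adjusted p = 0.261) and without replicate 2 it was 2.89 (edgeR adjusted p = 0.302), so the size held and the call did not. The 4-cell call was also lost with either other filter on low counts (edgeR adjusted p = 0.177 with at least 1 count and 0.0775 with a minimum of 10 per library), and the 8-cell call in the fit of all 12 libraries together (1.48, edgeR adjusted p = 0.153).

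Plk2 and Plk3 encode polo-like kinases that respond to stress, of which PLK2 also takes part in centriole duplication and PLK3 in checkpoint signalling. Plk2, at chr13:110395046-110400844 on the plus strand, held 23.8 and 21.7 CPM in control 2-cell and 67.2 and 72.4 CPM in MERVL-KD 2-cell embryos. At the 4-cell stage it held 20.5 and 39.9 CPM in control and 196 and 251 CPM in MERVL-KD. At the 8-cell stage it held 35.7 and 40.1 CPM in control and 109 and 98.8 CPM in MERVL-KD. The lowest MERVL-KD library of any stage was above the highest control library.

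Plk2 differed by 1.33 on the log2 scale at the 2-cell stage (standard error 0.12, edgeR adjusted p = 1.6e-06), by 2.84 at the 4-cell stage (standard error 0.37, edgeR adjusted p = 0.0181) and by 1.33 at the 8-cell stage (standard error 0.11, edgeR adjusted p = 1.8e-05). The difference was 1.58 larger at the 4-cell than at the 2-cell stage (95% interval 0.81 to 2.35, edgeR adjusted p = 0.0327). This change was called in 3 of 12 fits with a library left out, with an edgeR adjusted p of up to 0.197. Without MERVL-KD 4-cell replicate 1 the 4-cell value was 3.04 (edgeR adjusted p = 0.353), without replicate 2 it was 2.60 (edgeR adjusted p = 0.412), and with at least 1 count or at least 10 counts in every library its edgeR adjusted p was 0.187 and 0.0643.

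Plk3, at chr4:117128655-117133963 on the minus strand, moved at the 2-cell stage. It held 13.9 and 15.3 CPM in control and 54.7 and 49.3 CPM in MERVL-KD 2-cell embryos, the highest level of the 6 groups. At the 4-cell stage the control libraries held 9.95 and 13 CPM and the MERVL-KD libraries 17.4 and 12.9 CPM, which overlapped. At the 8-cell stage control held 13.4 and 18.9 CPM and MERVL-KD 11.8 and 13.1 CPM, the latter lower.

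The log2 difference of Plk3 was 1.54 (standard error 0.14, edgeR adjusted p = 1.6e-06) at the 2-cell stage, 0.34 (95% interval -0.13 to 0.80, edgeR adjusted p = 0.367) at the 4-cell stage and -0.49 (95% interval -0.93 to -0.06, edgeR adjusted p = 0.193) at the 8-cell stage. The 8-cell difference was 1.96 smaller than the 2-cell difference (95% interval of the change -2.54 to -1.39, edgeR adjusted p = 0.000258). Plk2 and Plk3, kinases of one family, were thus both called at the 2-cell stage, and Plk2 but not Plk3 was called at the later stages. Plk3 shares 84 exonic bases with Tctex1d4 on the opposite strand, which held from 0 to 6 counts in a library where Plk3 held at least 345.

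Among the genes that act back on p53, Ccng1 showed the smallest adjusted p of the 8 at the 2-cell and 8-cell stages. Ccng1 lies at chr11:40748552-40755311 on the minus strand. It held 22.4 and 21.2 CPM in control 2-cell and 105 and 97.9 CPM in MERVL-KD 2-cell embryos. At the 4-cell stage the control libraries held 21.6 and 36.5 CPM and the MERVL-KD libraries 261 and 226 CPM. In 8-cell embryos they held 30.5 and 28 CPM and 114 and 122 CPM. The control level moved little over the stages, and every MERVL-KD library lay above every control library.

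Ccng1 differed by 1.93 on the log2 scale at the 2-cell stage (edgeR adjusted p = 8.9e-09), by 3.01 at the 4-cell stage (edgeR adjusted p = 0.000136), an 8.05-fold difference, and by 1.89 at the 8-cell stage (edgeR adjusted p = 2.6e-06), with standard errors of 0.11, 0.22 and 0.12. The 4-cell difference was 1.16 larger than the 2-cell difference (edgeR adjusted p = 0.00926), and the 8-cell difference was 1.12 smaller than the 4-cell difference (-1.12, edgeR adjusted p = 0.0393). With a library left out these changes were called in 9 and 2 of 12 fits. With a single MERVL-KD 4-cell library the 4-cell value was 2.94 without replicate 1 (edgeR adjusted p = 0.137) and 3.07 without replicate 2 (edgeR adjusted p = 0.235).

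Control 4-cell replicate 1 stood well below control 4-cell replicate 2 for Btg2, Ccng1 and Plk2. Without it the 4-cell differences of Btg2, Ccng1 and Plk2 were 2.65, 2.68 and 2.43 on the log2 scale, and without control 4-cell replicate 2 they were 4.46, 3.42 and 3.38. Each was called either way.

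Mdm2 encodes the ubiquitin ligase that keeps p53 low and is itself switched on by p53. It lies at chr10:117688875-117710758 on the minus strand. It held 170 and 165 CPM in control 2-cell and 182 and 176 CPM in MERVL-KD 2-cell embryos. In 4-cell embryos it held 142 and 151 CPM in control and 196 and 185 CPM in MERVL-KD, and at the 8-cell stage 106 and 108 CPM against 147 and 144 CPM. In CPM of the library's total the MERVL-KD libraries lay above control at each stage, but on the TMM scale they lay below control at the 2-cell stage.

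The log2 differences of Mdm2 were -0.19 (95% interval -0.37 to -0.01, edgeR adjusted p = 0.161), 0.32 (0.11 to 0.52, edgeR adjusted p = 0.0495) and 0.32 (0.13 to 0.52, edgeR adjusted p = 0.0619) at the 3 stages. Each interval excluded a 2-fold difference. Scaled by library size, the 2-cell value turned to 0.10. The difference was larger at the 4-cell than at the 2-cell stage by 0.59 on the log2 scale (edgeR adjusted p = 0.012), and this change was not called with library size (0.28, edgeR adjusted p = 0.23) and was called in 5 of 12 fits with a library left out.

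Ppm1d encodes WIP1, the phosphatase that removes activating phosphates from p53 and from the checkpoint kinases above it. It lies at chr11:85311244-85347066 on the plus strand. It held 36.5 and 30.9 CPM in control 2-cell and 29.3 and 23.8 CPM in MERVL-KD 2-cell embryos. In 4-cell embryos it held 7.41 and 7.31 CPM in control and 15.6 and 18.3 CPM in MERVL-KD, and at the 8-cell stage 6.12 and 5.70 CPM against 9.07 and 7.09 CPM. The MERVL-KD libraries were therefore the lower ones at the 2-cell stage and the higher ones later.

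In control embryos Ppm1d fell by 2.36 on the log2 scale from the 2-cell to the 4-cell stage (edgeR adjusted p = 7.4e-10), a 5.13-fold lower level. Against control the MERVL-KD difference was -0.63 (standard error 0.14, edgeR adjusted p = 0.00684, under 2-fold) at the 2-cell stage, 1.14 (standard error 0.21, edgeR adjusted p = 0.00463) at the 4-cell stage and 0.32 (95% interval -0.17 to 0.81, edgeR adjusted p = 0.492) at the 8-cell stage. The 4-cell difference exceeded the 2-cell difference by 1.85 (95% interval 1.31 to 2.39, edgeR adjusted p = 0.000258). Without MERVL-KD 4-cell replicate 2 the 4-cell value was 0.98 (edgeR adjusted p = 0.014), just under the 2-fold threshold.

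Gtse1 encodes a microtubule-associated protein of the G2 phase that removes p53 from the nucleus. It lies at chr15:85859745-85876573 on the plus strand. It held 75.4 and 64.3 CPM in control 2-cell and 78.5 and 64.2 CPM in MERVL-KD 2-cell embryos, which overlapped. In 4-cell embryos it held 29.6 and 34.4 CPM in control and 94.9 and 109 CPM in MERVL-KD. In 8-cell embryos it held 30.5 and 29.0 CPM in control and 50.9 and 45.0 CPM in MERVL-KD. The MERVL-KD 4-cell level was the highest of the 6 groups and stood above the control 2-cell level.

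Gtse1 fell by 1.29 on the log2 scale in control embryos from the 2-cell to the 4-cell stage (edgeR adjusted p = 3.6e-08). The MERVL-KD difference was -0.26 (95% interval -0.50 to -0.01, edgeR adjusted p = 0.167) at the 2-cell stage, 1.61 (standard error 0.13, edgeR adjusted p = 2.0e-05) at the 4-cell stage and 0.56 (standard error 0.13, edgeR adjusted p = 0.0259, under 2-fold) at the 8-cell stage. The change from the 2-cell to the 4-cell stage, 1.95 (95% interval 1.56 to 2.34, edgeR adjusted p = 3.1e-06), was the largest among the 8 members and was called with each library left out in turn.

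Ppm1d and Gtse1 are the members called lower in control embryos between the 2-cell and the 4-cell stage. Btg2 differed by -1.06 there and was not called (edgeR adjusted p = 0.112). For Ppm1d the MERVL-KD 4-cell level, 16.9 ± 1.88 CPM, lay between the control 2-cell level of 33.7 ± 3.96 CPM and the control 4-cell level of 7.36 ± 0.0700 CPM (SD, n = 2 each). For Gtse1 it was 102 ± 9.74 CPM, beside 69.9 ± 7.86 CPM in control 2-cell and 32.0 ± 3.40 CPM in control 4-cell embryos. Markers of earlier and later stages stood as follows in the same libraries. The 5 markers of the 2-cell stage summed to 4.96 and 6.53 CPM in control 4-cell and to between 4.99 and 12.7 CPM in MERVL-KD 4-cell embryos, the 6 oocyte and maternal markers to between 137 and 139 and between 147 and 157 CPM, and the 6 markers of later blastomeres to between 321 and 327 and between 317 and 341 CPM. In 8-cell embryos the markers of later blastomeres summed to between 320 and 334 CPM in MERVL-KD embryos. The embryos of each pool had been picked by their visible cleavage stage. The part of these marker differences in the values of Ppm1d and Gtse1 was not tested.

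**Figure D2:**
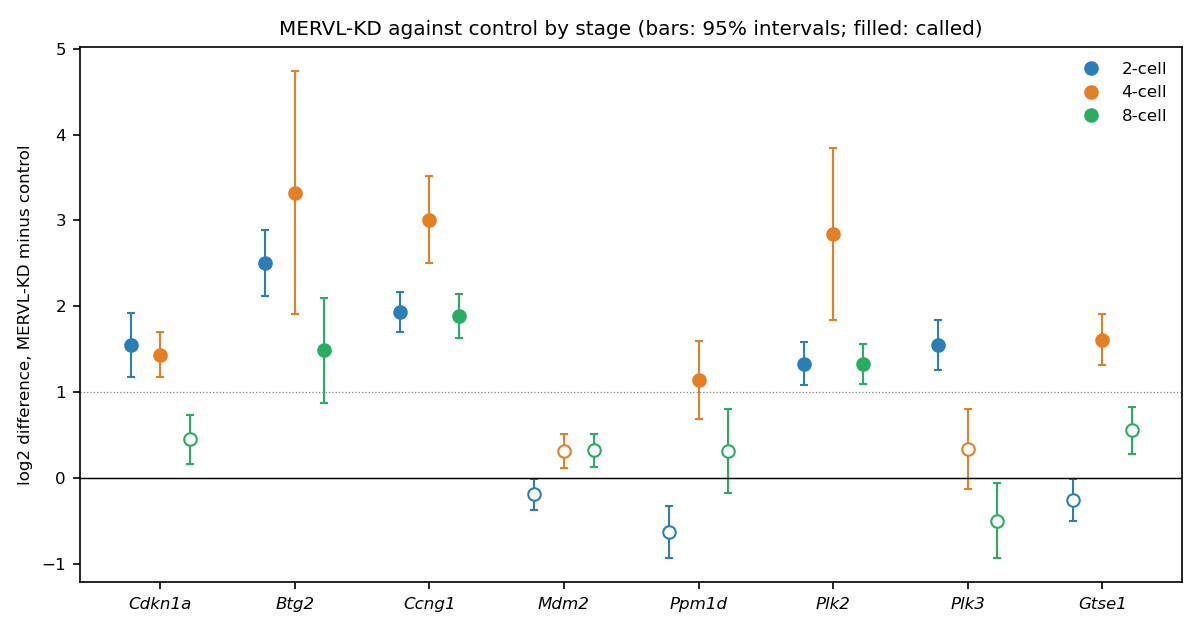
Log2 difference between MERVL-KD and control embryos for each gene at the 3 stages, with 95% intervals from edgeR's quasi-likelihood fit; filled points were called and the dotted line marks a 2-fold difference. Ccng1, Btg2 and Plk2 were called at every stage, with values from 1.33 to 3.32, and Mdm2 stayed within 0.32 of 0.

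How the effect itself changed between stages was tested in one fit of the 12 libraries. Between the 2-cell and the 4-cell stage the MERVL-KD effect differed for 6 of 8 members at an adjusted p under 0.05, against 999 of 24040 genes (4.16%). It grew for Ccng1, Mdm2, Ppm1d, Plk2 and Gtse1 and shrank for Plk3 (-1.13, edgeR adjusted p = 0.0231). Between the 4-cell and the 8-cell stage it differed for 3 members, against 150 genes (0.624%), and was smaller for each: Cdkn1a (-0.99, edgeR adjusted p = 0.0367), Ccng1 and Gtse1 (-1.06, edgeR adjusted p = 0.011). With a library left out, the Plk3 change was called in 9 and the Cdkn1a change in 8 of 12 fits. Between the 2-cell and the 8-cell stage it differed for 5 members, against 968 genes (4.03%), with Cdkn1a (-1.02) and Plk3 lower and Mdm2 (0.59), Ppm1d (1.02) and Gtse1 (0.89) higher.

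The comparisons share the libraries of their common stage, so their values are not independent of each other. For Btg2 none of the 3 changes was called, and their intervals were wide, for example -3.42 to -0.26 between the 4-cell and the 8-cell stage (edgeR adjusted p = 0.343). For Cdkn1a the effect at the 4-cell stage was close to that at the 2-cell stage, with a change of -0.03 and a 95% interval from -0.48 to 0.43. Scaled by library size, the 3 counts of members were 4, 1 and 2 in place of 6, 3 and 5. Of 24040 genes, 225 then had a larger and 1275 a smaller effect from the 2-cell to the 4-cell stage. The counts were 89 and 66 from the 4-cell to the 8-cell stage and 273 and 931 from the 2-cell to the 8-cell stage.

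**Figure D3:**
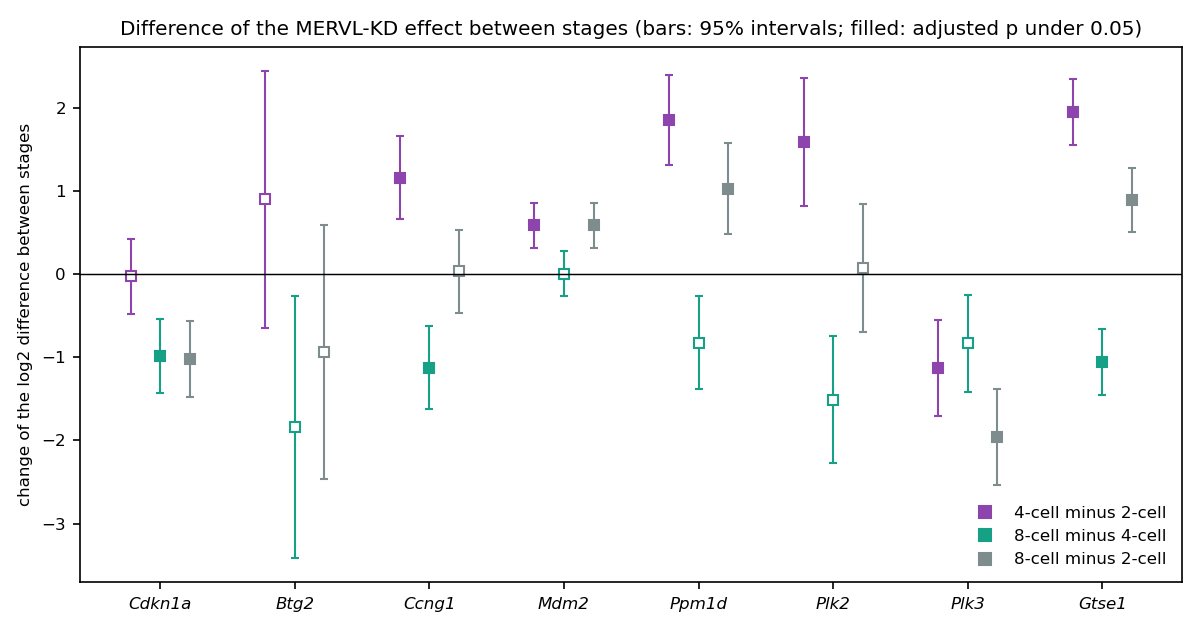
Change of the MERVL-KD effect between stages for each gene, on the log2 scale, with 95% intervals from the fit of 12 libraries; filled squares had an adjusted p under 0.05. Most 4-cell minus 2-cell values were above 0 and most 8-cell minus 4-cell values below 0, with Plk3 below 0 throughout.

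In control embryos alone 3 of the 8 members were called between the 2-cell and the 4-cell stage, by at least 2-fold and an edgeR adjusted p under 0.05, against 10826 of 24040 genes (45.0%), a share of genes so large that the members' count is no result about them. Cdkn1a rose, and Ppm1d and Gtse1 fell. With no fold threshold Mdm2 (-0.36, edgeR adjusted p = 0.00222) and Plk3 (-0.52, edgeR adjusted p = 0.0319) also passed, where 6337 genes passed higher and 6903 lower. Between the control 4-cell and 8-cell stages 0 members were called by edgeR's quasi-likelihood test, and 0 by DESeq2, against 375 genes (1.56%) by edgeR. At an unadjusted edgeR p under 0.05 there were 3 members, beside 4650 of 24040 genes. With no fold threshold Plk3 passed there (0.69, edgeR adjusted p = 0.0411), beside 766 genes higher and 645 lower.

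Per length of exon the members' make-up also shifted. Summed over the 8 genes, RPKM (CPM per kilobase of exon) was 93.6 and 87.3 in control 2-cell and 161 and 152 in MERVL-KD 2-cell libraries. It was 66.5 and 82.9 against 243 and 252 at the 4-cell stage and 68.3 and 72.7 against 137 and 128 at the 8-cell stage. In every control library Mdm2 had the highest level per length, 20.8 to 33.4 RPKM, and took from 29.1% to 42.0% of this sum. In the MERVL-KD 4-cell libraries Ccng1 (74.4 and 64.4 RPKM) and Plk2 (43.7 and 55.8 RPKM) stood above Mdm2 (38.5 and 36.5 RPKM), and Mdm2 took 15.9% and 14.5% of the sum. Btg2 was at or below 1.91 RPKM in every control library and reached 14.7 RPKM in MERVL-KD 2-cell embryos.

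**Figure D4:**
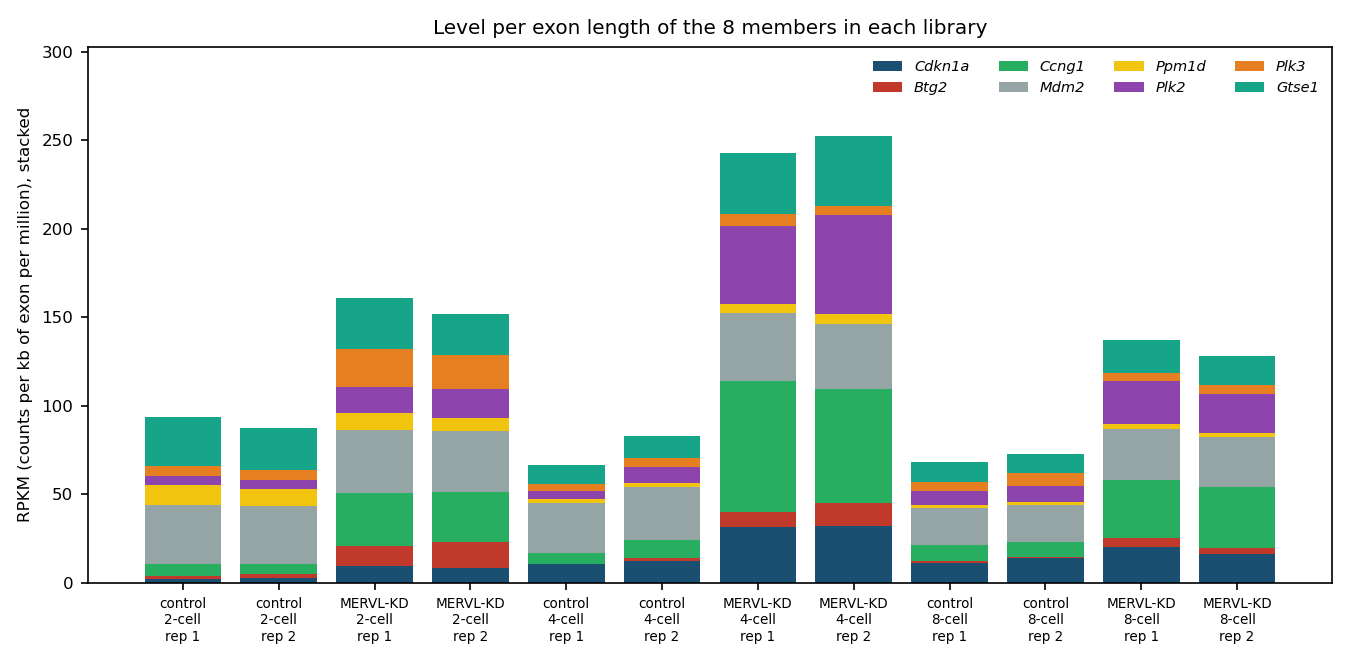
RPKM of the 8 genes, stacked, in each of the 12 libraries on a linear axis from 0. The summed height was from 66.5 to 93.6 in the control libraries and from 128 to 252 in the MERVL-KD libraries, with Ccng1 and Plk2 making up most of the gain over control at the 4-cell stage.

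Other genes of the pathway were counted in lists. Each list is to be read beside the shares of all genes called higher, 4.37%, 2.66% and 0.641% at the 3 stages. Over all genes 462, 372 and 195 were called lower. At an adjusted p under 0.05 alone, 1523 of 20604, 1153 of 19738 and 656 of 18414 genes were lower. Those higher at that threshold were 1381, 972 and 276. Counts of a list at an adjusted p alone are to be read beside these. Of 18 p53 targets that promote cell death, 17 were tested at each stage, and edgeR called 6, 8 and 4 higher and 0 lower in 2-cell, 4-cell and 8-cell embryos, where 1, 0 and 0 were lower at an adjusted p under 0.05 alone. Their median log2 differences were 0.31, 1.01 and 0.29, beside 0.01, 0.03 and 0.01 over all genes tested. Bbc3 (PUMA), which frees BAX and BAK to open mitochondria, stood at 6.94 ± 1.38 CPM in control and 26.1 ± 0.156 CPM in MERVL-KD 4-cell embryos (SD, n = 2 each), a log2 difference of 1.85. Pmaip1 (NOXA), which acts on the same step, stood at 11.2 ± 1.96 and 46.0 ± 3.39 CPM in 2-cell embryos, a log2 difference of 1.76. Zmat3, an RNA-binding target of p53, was called at each stage, with log2 differences of 1.75, 1.99 and 1.11. Phlda3, an inhibitor of AKT signalling, held 0 counts in both control 2-cell libraries and 1.17 ± 0.730 CPM in MERVL-KD, so no fold is given.

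Another list held 17 p53 targets in DNA repair and metabolism. Of these, 2-cell embryos showed 2 of 16 tested called higher, 4-cell embryos 3 of 17 higher and 1 lower, and 8-cell embryos 0 of 17, where 4 higher and 1 lower had an edgeR adjusted p under 0.05 below the 2-fold threshold. Their medians were 0.20, 0.37 and 0.27. Polk, a translesion polymerase, and Ercc5, a nuclease of nucleotide excision repair, were called at the 2-cell (1.27 and 1.55) and 4-cell stages (1.44 and 1.29). Ddb2, a damage sensor of the same repair pathway, fell by 1.03 on the log2 scale at the 4-cell stage (edgeR adjusted p = 0.046).

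A further list held p53 and its regulators. Of 13 such genes 0 were called higher at any stage, and 1, Atr, the kinase that signals stalled replication, was called lower, by 1.02 on the log2 scale at the 4-cell stage (-1.02, edgeR adjusted p = 0.00194). At an adjusted p under 0.05 alone, 0 were higher and 1, 6 and 1 were lower at the 3 stages. Over all genes 1523 of 20604, 1153 of 19738 and 656 of 18414 were lower at that threshold. A count of 1 is too small beside these shares to be a result about the list. Their medians were -0.13, -0.35 and -0.16. Trp53 itself held 24.5 ± 2.55 CPM in control and 16.8 ± 0.0193 CPM in MERVL-KD 4-cell embryos (log2 difference -0.61, edgeR adjusted p = 0.0357, under 2-fold). Mdm4, which binds p53 beside MDM2, had 535 ± 23.6 CPM in control and 355 ± 10.7 CPM in MERVL-KD 4-cell embryos (-0.65, edgeR adjusted p = 0.000603, under 2-fold).

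Relatives of the members made up another list. Of 16 paralogs, 15 were tested in 2-cell embryos and 16 at the later stages. The same 1 was called higher in 2-cell and in 4-cell embryos, against 4.37% and 2.66% of all genes. A count so near these shares is no result about the list. In 8-cell embryos 0 were called, and 2 lower had an edgeR adjusted p under 0.05. With no fold threshold, Tob2, a relative of Btg2, was also higher in 2-cell embryos (0.38, edgeR adjusted p = 0.00719), and 3 paralogs were lower in 2-cell and 3 in 4-cell embryos. The gene called was Cdkn1c, which encodes p57, a sister of p21 that is not a textbook target of p53. In 2-cell embryos it stood at 5.15 ± 1.34 CPM in control and 34.3 ± 1.39 CPM in MERVL-KD (log2 difference 2.43, edgeR adjusted p = 5.7e-07), and in 4-cell embryos at 1.02 ± 0.436 and 10.9 ± 2.54 CPM (3.33, edgeR adjusted p = 0.000123). Btg4, the maternal relative of Btg2, had 1456 ± 161 CPM in control and 1103 ± 187 CPM in MERVL-KD 2-cell embryos (-0.69, edgeR adjusted p = 0.000564, under 2-fold). The medians over the paralogs were -0.22, -0.05 and -0.07.

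Among 14 cyclins and kinases that p21 binds, with PCNA, 13 were tested at each stage. At the 2-cell stage 0 were called and 2 lower passed the adjusted p alone. In 4-cell embryos Ccnd2 and Ccne2, cyclins of the G1 phase, were called higher, and 2 genes lower passed the adjusted p alone, Cdk1 and Ccne1, another G1 cyclin (-0.32, edgeR adjusted p = 0.0485). In 8-cell embryos 0 were called and 3 lower passed the adjusted p alone. Ccne2, the cyclin E2 gene, had 13.4 ± 0.788 CPM in control and 30.6 ± 0.0427 CPM in MERVL-KD 4-cell embryos (log2 difference 1.13, edgeR adjusted p = 0.000984), having stood at 58.9 ± 3.86 CPM in control 2-cell embryos. Cdk1, the kinase of mitosis, differed by -0.41, -0.66 and -0.66 at the 3 stages, each with an edgeR adjusted p of at most 0.00998 and each under 2-fold. Pcna differed by 0.13, 0.07 and 0.08, with edgeR adjusted p from 0.438 to 0.808.

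**Figure D5:**
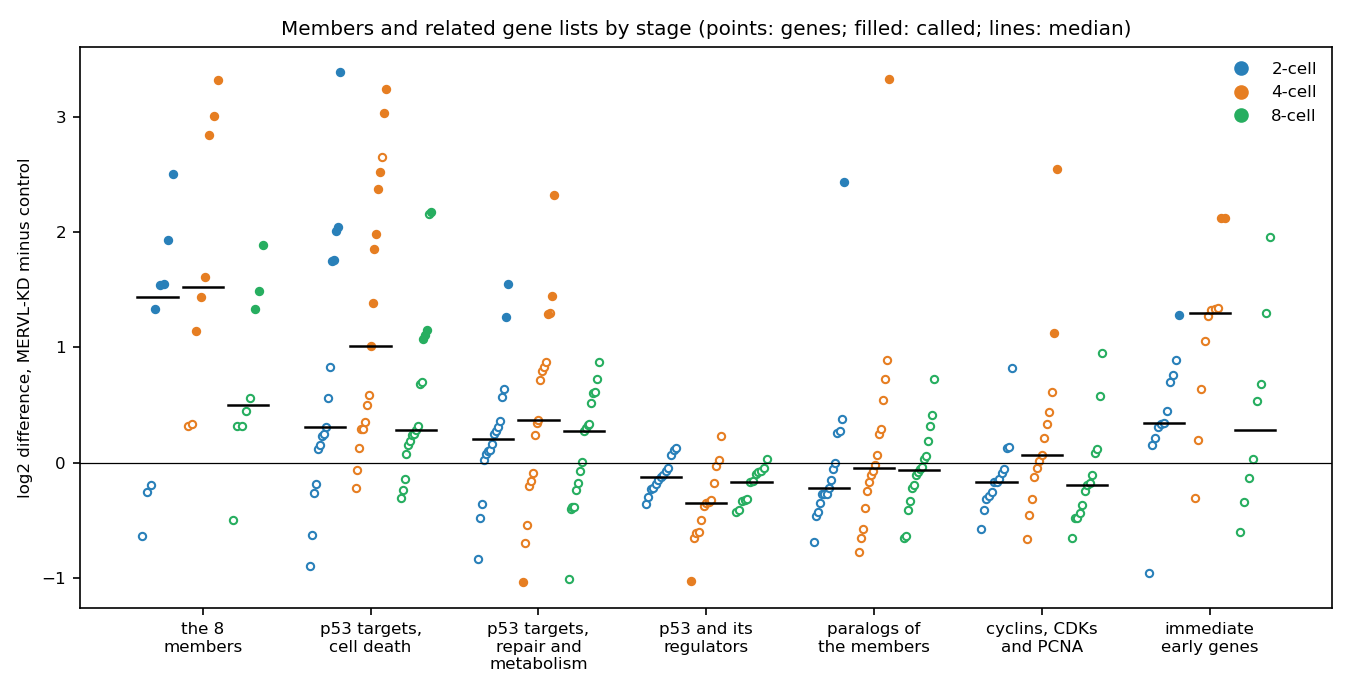
Log2 difference between MERVL-KD and control embryos for the members and for 6 gene lists at the 3 stages; points are genes, filled where called, and lines are medians. Phlda3 at the 2-cell stage, with 0 counts in control, is left out of the points, and the medians of the members and of the cell death targets lay above those of the regulators, paralogs and cyclins at each stage, while the immediate early genes had medians of 0.34, 1.30 and 0.28.

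Genes whose profile over the 12 libraries was most like a member's were found by Pearson's r of log2 CPM (TMM-scaled, prior count 2) among 24039 other genes. These r values rest on 12 libraries that share stages and treatment and are given as a description. Ccng1 and Plk2 were nearest to each other (r = 0.969). Cdkn1a was nearest to Lrrc15 (0.988), Gm21060 (0.985) and Phlda3 (0.983), and Btg2 to Igsf9b (0.946), Pmaip1 (0.934) and Fndc4 (0.933). Gtse1 was nearest to Fdxr (0.957), another p53 target of the repair and metabolism list. Ppm1d was nearest to Cd55 (0.976), Mdm2 to Arid4b (0.943) and Plk3 to Zc2hc1c (0.928). With each stage's mean taken away, the 3 genes nearest to Btg2 were Actn2 (0.970), Fasn (0.969) and Plk2 (0.969). Those nearest to Plk2 were Fasn (0.981), Ninl (0.979) and Ccng1 (0.978). For the other members the 3 nearest genes held no member. Cdkn1a was then nearest to Snord55 (0.988), Gm21060 (0.978) and Carhsp1 (0.971), and Gtse1 to Commd3 (0.968), Lifr (0.967) and Mtmr10 (0.965). Phlda3, Pmaip1 and Fdxr were thus among the 3 nearest genes of Cdkn1a, Btg2 and Gtse1 only with the stage means left in.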

How the data were processed

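RNA libraries of 12 embryo pools were analysed, and the ATAC-seq samples of the series were not analysed here. The authors aligned the paired-end reads of stranded total RNA libraries to GRCm38 with STAR 2.5.3a, kept unique alignments, and counted them on GENCODE vM25 genes and RepeatMasker families with featureCounts; the deposited values are these raw counts. The strand and pair settings of the counting are not given in the sources used here. An even count stood at 71.8% to 74.7% of genes holding 1 to 50 counts in a library, as where both mates of a pair are counted, and independent fragments are then fewer than the counts. Replicates, 2 per group, are biological per the study's methods and differed by more than sampling noise (chi-square per degree of freedom 14.7 to 25.8).

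Each stage was fitted with edgeR 4.0.16 in R 4.3.3 (filterByExpr, TMM, robust quasi-likelihood), and the mean over stages, the differences between stages and the control stages in a fit of all 12 libraries. The Benjamini-Hochberg adjustment covered every gene and repeat family tested. Calls required at least 2-fold and an adjusted p under 0.05, and a difference between stages at an adjusted p under 0.05. Intervals are 95% intervals from the fitted degrees of freedom, and with 2 libraries a group their precision is low. CPM used library totals. The scripts were tested on simulated counts. All 8 members matched the RefSeq promoter table (GRCm38.p6), with 10 windows. The members, lists and named genes were chosen with earlier results of these data known. Named genes included members, called list genes and genes among the 3 most like a member. Some list genes that were not called were named too: Trp53, Mdm4, Tob2, Btg4, Cdk1, Ccne1 and Pcna. Most other list genes that were not called go unnamed. Alternatives were DESeq2 1.42.0, DESeq2 size factors, library size, other count filters, a non-robust fit, halved counts, genes alone, a replicate block, other sets of libraries, no fold threshold and each library left out.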

Additional observations from a re-analysis of the deposited data

Results flagged for a closer look

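The MERVL-KD effect on a member differed between stages, by a test of the difference itself in edgeR, in 14 instances. From the 2-cell to the 4-cell stage the log2 difference changed by 1.16 for Ccng1, 0.59 for Mdm2, 1.85 for Ppm1d, 1.58 for Plk2, -1.13 for Plk3 and 1.95 for Gtse1. Of the fits with a library left out, 12 in all, the changes of Ppm1d and Gtse1 passed the threshold in 12, those of Ccng1 and Plk3 in 9, that of Mdm2 in 5 and that of Plk2 in 3. From the 4-cell to the 8-cell stage it changed by -0.99 for Cdkn1a, -1.12 for Ccng1 and -1.06 for Gtse1, which passed in 8, 2 and 12 of these fits. From the 2-cell to the 8-cell stage it changed by -1.02 for Cdkn1a, 0.59 for Mdm2, 1.02 for Ppm1d, -1.96 for Plk3 and 0.89 for Gtse1, which passed in 11, 9, 6, 12 and 11 of these fits. The cause of these differences was not tested.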

How the results depend on the processing

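Of 1408 log2 differences of members under the alternatives, 1289 kept their direction and side of the threshold, 68 lost and 22 gained a call and 29 changed sign. By stage, 343 of 360 did so. The count of members called at the 4-cell stage was 2 to 6 with a library left out, against 6, with 3 without MERVL-KD replicate 1 and 2 without replicate 2. For the change of effect from the 2-cell to the 4-cell stage it was 3 to 6 against 6, with 3 without either 2-cell library of control or of MERVL-KD, and from the 4-cell to the 8-cell stage 1 to 5 against 3, with 5 without control 4-cell replicate 2, 1 without MERVL-KD 4-cell replicate 2 or control 8-cell replicate 2, and 1 under library size. From the 2-cell to the 8-cell stage it was 2 to 5 against 5, with 2 without control 8-cell replicate 2, 3 without replicate 1 of control at the 2-cell or 8-cell stage, and 2 under library size. Without a fold threshold the control counts were 5 and 1 in place of 3 and 0, and without control 4-cell replicate 2 the control 8-cell against 4-cell count was 2.

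These values changed sign. Under library size they were 0.10 for Mdm2 and 0.031 for Gtse1 at the 2-cell stage, -0.21 for Ccng1 and -0.16 for Plk2 in the 8-cell minus 2-cell effect, and -0.10 for Gtse1 between control 4-cell and 8-cell. With at least 10 counts they were -0.066 for Ccng1 and -0.026 for Plk2 in the 8-cell minus 2-cell effect and -0.0071 for Mdm2 in the 8-cell minus 4-cell effect, which was -0.023 with DESeq2 or its size factors and -0.0024 with halved counts. With a library left out the 4-cell minus 2-cell effect of Cdkn1a ran from -0.31 to 0.21, the 8-cell minus 4-cell effect of Mdm2 from -0.040 to 0.051, and the 8-cell minus 2-cell effects from -0.16 to 0.12 for Ccng1 and -0.086 to 0.14 for Plk2. Control 4-cell against 2-cell ran from -0.19 to 0.57 for Ccng1 and -0.32 to 0.63 for Plk2, lowest without control 4-cell replicate 2. Control 8-cell against 4-cell ran from -0.059 to 1.76 for Btg2, -0.11 to 0.64 for Ccng1 and -0.00051 to 0.21 for Gtse1, lowest without control 4-cell replicate 1. The cause was not tested.

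Over all genes the change of effect was called for 999, 150 and 968 genes in edgeR and in DESeq2 for 1056 with a larger and 641 with a smaller effect, 190 and 280, and 851 and 647. With library size the 4-cell minus 2-cell calls were 225 larger and 1275 smaller in place of 604 and 395, and the 8-cell minus 2-cell calls 273 and 931 in place of 575 and 393.

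With the replicate block the members called by stage were 5, 6 and 3, as without it. Deviations of libraries with the same number correlated between -0.01 and 0.01, so the numbers do not pair the samples. With 2 pools a group precision was low for low genes: the 95% interval of Btg2 at the 4-cell stage ran from 1.91 to 4.74.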

Other observations

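Immediate early genes, which respond within minutes to growth factors and stress, were described as a further group of 12. At the 2-cell stage 1 of 11 tested was called higher in MERVL-KD embryos, Ier3 (log2 difference 1.28, edgeR adjusted p = 0.045), against 4.37% of all genes. At the 4-cell stage 2 of 10 were called higher, against 2.66% of all genes. Jun, a subunit of AP-1, stood at 1.43 ± 0.0156 CPM in control and 6.49 ± 0.440 CPM in MERVL-KD 4-cell embryos (SD, n = 2 each), and Ier2 at 3.89 ± 0.524 and 17.6 ± 1.01 CPM. At the 8-cell stage 0 of 8 were called by edgeR and 1 lower passed the adjusted p alone, beside 656 of 18414 genes. The medians of the group were 0.34, 1.30 and 0.28, beside 0.01, 0.03 and 0.01 over all genes tested.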
